A study of Rattus norvegicus with 36 samples.

Results

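The genes described here are the 46 rat genes whose symbols begin with Psma, Psmb, Psmc, Psmd, Psme, Psmf or Psmg, out of 14217 genes measured by a probe set of a single gene symbol. They were chosen by name, and where a gene had several probe sets the one with the highest mean over all 36 arrays stands for it, which applied to 9 of the 46. That mean was the only measured value in the rule. The gene family itself was picked with earlier results of these data known, so its shares beside those of all probe sets are a description. Of the 46 genes, 44 encode subunits, regulators or assembly chaperones of the proteasome: 7 of the alpha ring and 6 of the beta ring of the 20S core, 3 catalytic subunits of the immunoproteasome, 9 subunits of the 19S base and 8 of the 19S lid, 3 activators and 1 inhibitor, and 7 chaperones. The other two, Psmc3ip and Psme3ip1, share the name but encode proteins that are not subunits.

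The livers came from male Harlan Sprague Dawley rats, aged 7 weeks at the start, that received hexabromocyclododecane (HBCD), a brominated flame retardant, in corn oil by oral gavage at 5 ml/kg on 5 consecutive days. There were 6 groups of 6 arrays each, one given the vehicle alone (0 mg/kg) and the others 641, 64.1, 6.41, 0.641 and 0.06 mg/kg, and the left lobe was sampled 1 day after the last dose. Whether every array stands for a different animal is not stated in the labels, and the p-values therefore cover only the spread among these arrays, part of which may be technical. The values ran from 1.53 to 14.588 with array medians of 4.83 to 4.90, and no arrays were identical. They are log2 levels of whole liver RNA, in which fewer cells of a type and less RNA per cell cannot be told apart. A gene is called changed at an adjusted p under 0.05 from limma, with the Benjamini-Hochberg adjustment over all 31042 probe sets tested, and folds carry 95% confidence intervals from the same fit.

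The proteasome degrades proteins tagged with ubiquitin. Its core is a barrel in which rings of beta subunits, some of them proteases, lie between rings of alpha subunits that form the gate. The 19S particle caps the barrel: its base holds the ATPases that unfold substrates and open the gate, and its lid holds the enzyme that removes ubiquitin. Interferon induces 3 alternative catalytic subunits that replace the constitutive ones to form the immunoproteasome, and the PA28 activator, a ring of Psme1 and Psme2 proteins, can cap the core in place of 19S. In cells with too little proteasome activity, the transcription factor NRF1 raises the transcription of most subunit genes through antioxidant response elements. The related factor NRF2 acts on elements of the same kind and is known for its control of detoxification genes in liver.

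The upstream sequences of 5 members are printed to show the motifs that are counted below. Psmb3, Psmd5 and Psme1 were among the genes that changed at the highest dose and stand for the core, the chaperones and the activators. Psmb5 and Psme4 hold the core of the antioxidant response element. Each sequence is the 250 bases before the gene's start in the RefSeq annotation of assembly GRCr8, written 5′ to 3′ on the gene's own strand, with capitals for matches on either strand to TGACNNNGC, the core of the antioxidant response element, and to CCAAT, the box bound by NF-Y. The Psmb3 sequence met the rule for display, and the other 4 were chosen after their values were seen.
Psmb3 (chr10:83193537-83193786, plus strand): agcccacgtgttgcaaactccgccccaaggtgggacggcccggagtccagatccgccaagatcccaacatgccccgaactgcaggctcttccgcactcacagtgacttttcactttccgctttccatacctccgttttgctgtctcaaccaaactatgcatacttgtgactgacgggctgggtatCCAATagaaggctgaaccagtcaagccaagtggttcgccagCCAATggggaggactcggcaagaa
Psmd5 (chr3:38548491-38548740, minus strand): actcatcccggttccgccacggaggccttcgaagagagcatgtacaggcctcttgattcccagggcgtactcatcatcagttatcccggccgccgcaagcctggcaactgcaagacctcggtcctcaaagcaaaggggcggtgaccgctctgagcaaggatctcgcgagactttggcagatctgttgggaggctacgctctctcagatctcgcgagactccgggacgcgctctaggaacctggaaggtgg
Psme1 (chr15:33038721-33038970, plus strand): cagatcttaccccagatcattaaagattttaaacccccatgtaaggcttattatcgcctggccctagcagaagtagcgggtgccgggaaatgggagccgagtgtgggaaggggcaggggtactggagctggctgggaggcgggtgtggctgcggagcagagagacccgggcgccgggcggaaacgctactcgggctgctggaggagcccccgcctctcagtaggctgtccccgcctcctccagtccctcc
Psmb5 (chr15:32047380-32047629, minus strand): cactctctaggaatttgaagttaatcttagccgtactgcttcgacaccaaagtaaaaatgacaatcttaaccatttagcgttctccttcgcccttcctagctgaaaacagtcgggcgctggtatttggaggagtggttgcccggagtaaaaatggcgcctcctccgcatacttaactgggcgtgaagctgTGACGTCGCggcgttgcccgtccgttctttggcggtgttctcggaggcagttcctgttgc
Psme4 (chr14:108706393-108706642, plus strand): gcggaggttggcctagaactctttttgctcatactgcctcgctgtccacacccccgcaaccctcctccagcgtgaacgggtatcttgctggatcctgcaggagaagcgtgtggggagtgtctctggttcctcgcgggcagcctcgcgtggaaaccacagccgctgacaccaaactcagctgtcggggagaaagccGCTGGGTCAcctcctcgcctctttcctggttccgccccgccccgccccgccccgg
Psmb3 held CCAAT at 65 and 24 bases before its start. TGACNNNGC lay 60 bases before the start of Psmb5, on its own strand, and 55 bases before that of Psme4, on the opposite strand. Psmd5 and Psme1 held neither motif in this window.

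At 641 mg/kg, proteasome genes of several parts of the particle were modestly higher than in vehicle, and none was called lower. The 8 genes called higher were Psma1 of the alpha ring, Psmb3, Psmb4 and Psmb7 of the beta ring, Psmd8 and Psmd14 of the 19S lid, the activator subunit Psme1 and the 19S chaperone Psmd5, with folds of 1.14 to 1.29. These 8 were 17.4% of the 46 members, against 1.13% of all 31042 probe sets and 1.74% of the 14217 genes called higher in this comparison, and 0.512% of probe sets called lower. The groups did not overlap in 7 members, all higher, where 1.06% of all probe sets did not overlap and were higher and 0.654% lower. At an unadjusted p under 0.05, 21 members were higher and 0 lower, against 6.05% and 5.39% of all probe sets. Proteasome genes gave bright signals, and among the 5319 genes with a mean of at least 7, a limit chosen after the values were seen, the share called higher was 3.29%. Of these bright genes, 3.1% did not overlap and were higher and 1.82% lower. By limma at an unadjusted p under 0.05, 12.3% of them were higher and 8.18% lower. A mean above vehicle was also seen outside the called genes, in 45 of 46 members, where 46.9% of all probe sets and 52.9% of the bright genes did. The median member stood 0.11 log2 units above vehicle, and the median probe set stood at -0.01. Leaving out single arrays gave 3 to 8 calls: 4 without vehicle replicate 2 or 4, 3 without vehicle replicate 5, 5 without vehicle replicate 6, and 4 without replicate 1 or 2 of 641 mg/kg. Psmb3, Psmd5 and Psme1 were called without any single array, and these 3 were also the calls when only the vehicle and 641 mg/kg arrays were fitted.

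**Figure D1:**
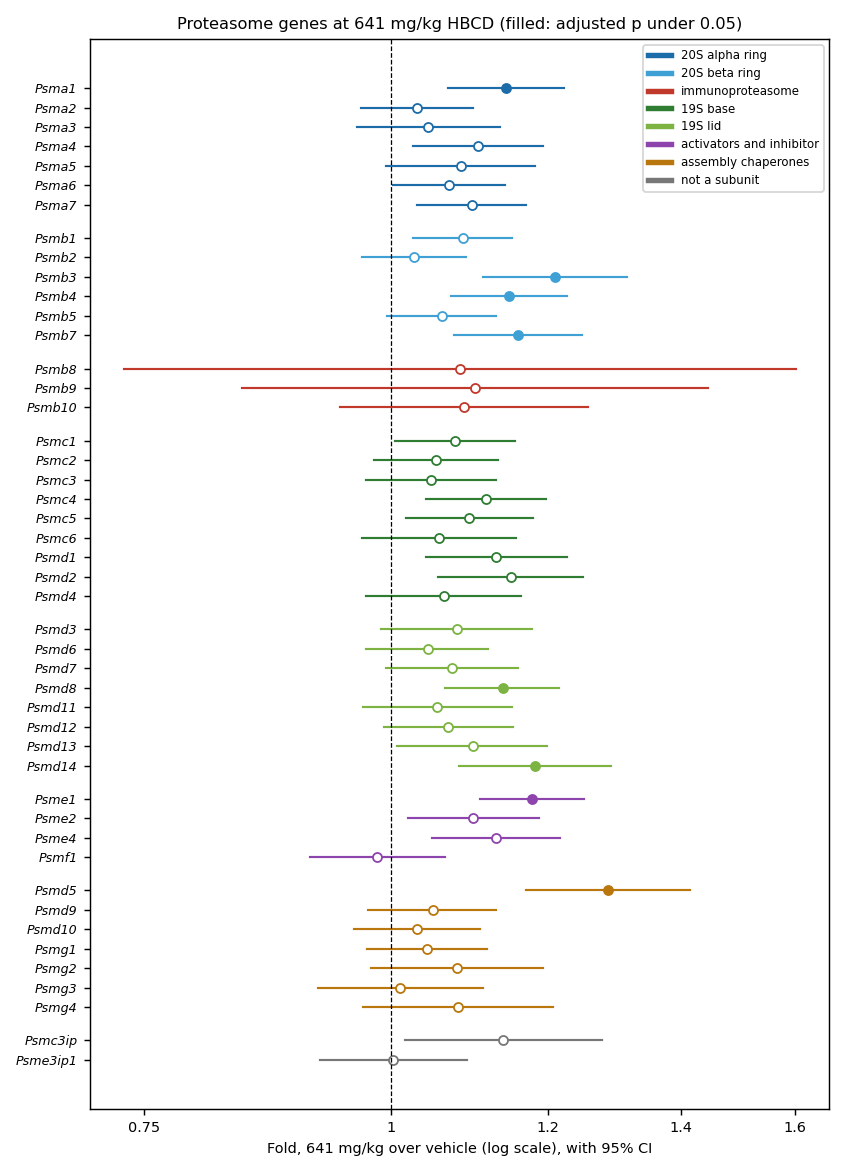
Fold of each of the 46 genes at 641 mg/kg over vehicle, on a logarithmic axis, as points with 95% confidence intervals and coloured by particle part; filled points have an adjusted p under 0.05. All points but that of Psmf1 lie to the right of 1, and the 3 immunoproteasome genes in red have the widest intervals.

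In the alpha ring of the 20S core, 1 of 7 genes was called. Psma1 levels on the 6 vehicle arrays ran from 10.03 to 10.33 (median 10.24), and on the 6 arrays at 641 mg/kg from 10.31 to 10.46 (median 10.43). Each of the 6 treated arrays exceeded the mean of vehicle, although the lowest fell just below the highest vehicle array. Psma1 rose 1.14-fold (95% CI 1.07 to 1.22; adjusted p = 0.0287). Leaving out single arrays removed this call in 6 of 12 cases. The other 6 alpha genes were 1.03-fold (Psma2) to 1.11-fold (Psma4) of vehicle, with adjusted p-values of 0.155 for Psma7, 0.223 for Psma4 and higher for the rest. A brighter probe set listed under both Psma3 and Psma3l stood at 1.10-fold (1.03 to 1.18; adjusted p = 0.184), against 1.04-fold for the probe set of Psma3 alone.

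The beta ring had the most calls of any part, 3 of 6. Psmb3, a structural beta subunit, ran from 9.91 to 10.19 (median 10.07) in vehicle and from 10.20 to 10.39 (median 10.34) at 641 mg/kg. The groups did not overlap, and Psmb3 rose 1.21-fold (1.11 to 1.32; adjusted p = 0.00824). Psmb4, another structural subunit, ran from 11.21 to 11.43 (median 11.36) in vehicle and from 11.50 to 11.58 (median 11.53) at 641 mg/kg, a rise of 1.146-fold (1.07 to 1.23; adjusted p = 0.0212). Psmb7, which carries the trypsin-like protease site, ran from 9.15 to 9.317 (median 9.22) in vehicle and from 9.319 to 9.59 (median 9.43) at 641 mg/kg. Its groups came close but did not overlap, and Psmb7 rose 1.16-fold (1.08 to 1.25; adjusted p = 0.0288). Leaving out single arrays removed the Psmb7 call in 6 of 12 cases, the Psmb4 call in 3 of 12 and the Psmb3 call in 0 of 12. Psmb1 also had groups that did not overlap, at 1.09-fold (1.03 to 1.151), but missed the threshold (adjusted p = 0.156). Psmb5, the chymotrypsin-like protease, stood at 1.06-fold (0.995 to 1.13; adjusted p = 0.491) and Psmb2 at 1.03-fold (0.967 to 1.09; adjusted p = 0.814). The remaining protease gene, Psmb6, had only a probe set that is also listed under the related Psmb6l1, at 1.11-fold (1.03 to 1.195; adjusted p = 0.207). It lies outside the 46.

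**Figure D2:**
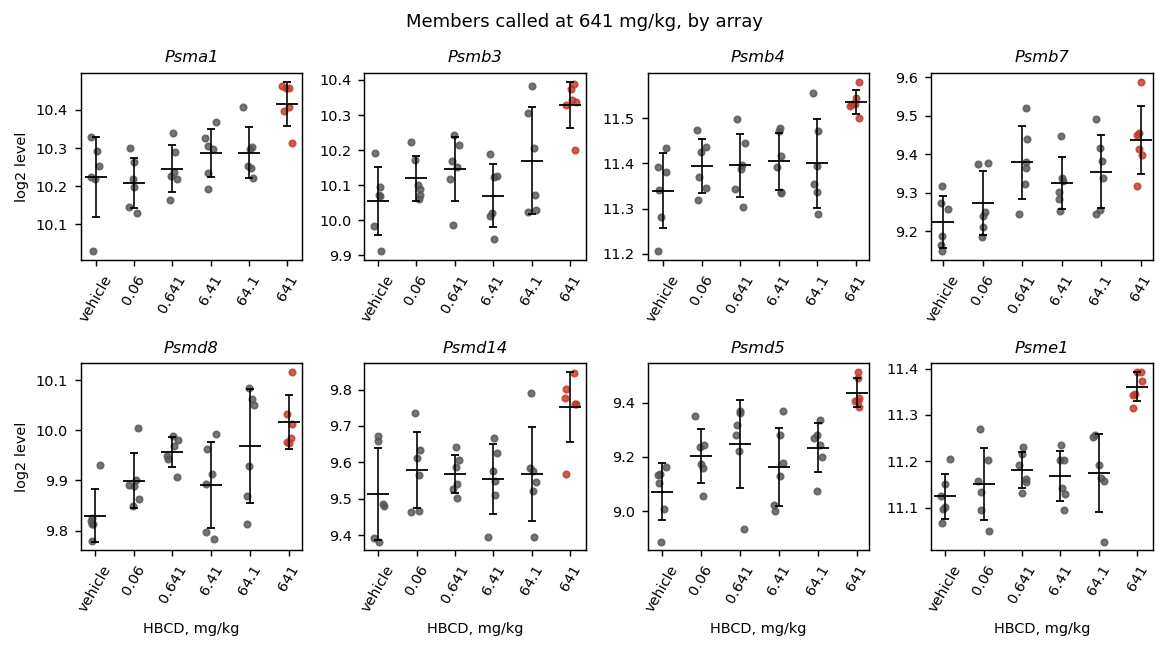
Log2 level on each of the 36 arrays for the 8 genes called at 641 mg/kg, by dose, with bars for the group mean and SD of 6 arrays; red points are the arrays at 641 mg/kg. The 641 mg/kg arrays lie above all vehicle arrays in each panel except those of Psma1 and Psmd14, and above all other 30 arrays in the panels of Psmd5 and Psme1.

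None of the 9 genes of the 19S base was called by limma at 641 mg/kg, although all 9 stood above vehicle and 5 had an unadjusted p under 0.05. Psmd2, a scaffold and ubiquitin receptor of the base, ran from 9.54 to 9.82 (median 9.75) in vehicle and from 9.81 to 10.03 (median 9.90) at 641 mg/kg. Only the highest vehicle array reached the treated range, and Psmd2 stood at 1.149-fold (1.06 to 1.25; adjusted p = 0.0892). Its partner Psmd1 stood at 1.13-fold (1.04 to 1.23; adjusted p = 0.141). The 6 ATPases Psmc1 to Psmc6 ranged from 1.05-fold (Psmc3 and Psmc2) to 1.12-fold (Psmc4; adjusted p = 0.111).

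In the 19S lid, 2 of 8 genes were called. Psmd14, the protease that removes ubiquitin from substrates, ran from 9.38 to 9.67 (median 9.48) in vehicle and from 9.57 to 9.85 (median 9.77) at 641 mg/kg. The groups overlapped through the lowest treated array, and Psmd14 rose 1.18-fold (1.08 to 1.29; adjusted p = 0.0363). Its other two probe sets moved alike, at 1.16-fold (1.06 to 1.28; adjusted p = 0.0992) and 1.24-fold (1.11 to 1.37; adjusted p = 0.0212). Psmd8, a lid subunit, ran from 9.78 to 9.93 (median 9.82) in vehicle and from 9.97 to 10.12 (median 9.999) at 641 mg/kg without overlap, a rise of 1.14-fold (1.06 to 1.22; adjusted p = 0.0327). Both calls were fragile. Leaving out single arrays removed the Psmd14 call in 9 of 12 cases and the Psmd8 call in 8 of 12. Repeated quantile normalization also removed the Psmd8 call. The remaining 6 lid genes were 1.04-fold (Psmd6) to 1.10-fold (Psmd13) of vehicle, with adjusted p-values of at least 0.373. With base and lid together, all 17 genes of the 19S particle that met the naming rule stood above vehicle, and 2 were called; the lid gene Sem1 and the base gene Adrm1 lie outside that rule, at 0.976-fold and 1.06-fold.

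Among the activators, Psme1 showed the smallest adjusted p of all members. Psme1 levels ran from 11.07 to 11.21 (median 11.11) in vehicle, and from 11.32 to 11.39 (median 11.36) at 641 mg/kg. In the groups between, Psme1 ran from 11.05 to 11.27 at 0.06, 11.13 to 11.23 at 0.641, 11.09 to 11.24 at 6.41 and 11.03 to 11.26 at 64.1 mg/kg. All 6 arrays at 641 mg/kg lay above the other 30 arrays, and Psme1 rose 1.18-fold (1.11 to 1.25; adjusted p = 0.00109). A second probe set of Psme1, with a mean level of 4.62, just under the array medians, stood at 0.892-fold (0.785 to 1.02; adjusted p = 0.514). With the mean of both probe sets in place of the brighter one, Psme1 was not called (adjusted p = 0.834). Psme2, the partner of Psme1 in the PA28 ring, ran from 9.58 to 9.82 (median 9.66) in vehicle and from 9.71 to 9.92 (median 9.81) at 641 mg/kg, with overlap, and stood at 1.10-fold (1.02 to 1.19; adjusted p = 0.260). Psme4, which encodes the activator PA200, stood at 1.13-fold (1.05 to 1.22; adjusted p = 0.0915) by its brightest probe set. Another probe set of Psme4 stood at 1.13-fold (1.04 to 1.23; adjusted p = 0.140). A further one, with a mean level of 8.08, went the other way, at 0.955-fold (0.871 to 1.05; adjusted p = 0.789). Psmf1, which encodes the proteasome inhibitor PI31, was the 1 member below vehicle, at 0.984-fold (0.909 to 1.06; adjusted p = 0.930). Psme3, the subunit of the nuclear activator, had no probe set of its own. Of 4 probe sets listed under Psme3 together with Aoc3 and G6pc1, 2 stood at 0.523-fold and 0.500-fold of vehicle (adjusted p = 0.0840 and 0.0822) and the other two at 1.02-fold and 1.00-fold. They cannot be assigned to Psme3 and were not counted.

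Psmd5 had the largest fold among the 46 genes at 641 mg/kg. It encodes a chaperone that holds 19S base subunits during assembly. Psmd5 levels ran from 8.89 to 9.16 (median 9.12) in vehicle and from 9.38 to 9.51 (median 9.41) at 641 mg/kg. In the groups between, Psmd5 ran from 9.05 to 9.35 at 0.06, 8.93 to 9.37 at 0.641, 9.00 to 9.37 at 6.41 and 9.07 to 9.34 at 64.1 mg/kg. The arrays at 641 mg/kg lay above all other 30 arrays, and Psmd5 rose 1.29-fold (1.17 to 1.41; adjusted p = 0.00154). The other 6 chaperone genes gave no call by limma, at 1.01-fold (Psmg3) to 1.08-fold (Psmg4), and none had an unadjusted p under 0.05. These were Psmd9 and Psmd10, which assemble the base with Psmd5, and Psmg1 to Psmg4, which assemble the alpha ring. The 2 genes that share only the name stood at 1.14-fold for Psmc3ip (1.02 to 1.28; adjusted p = 0.332) and 1.00-fold for Psme3ip1 (0.920 to 1.09; adjusted p = 0.994).

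The lower doses gave no called member. By limma, 0 of 46 were called at any of the 4 doses below 641 mg/kg. Of all probe sets 0.0419% were called higher at 64.1 mg/kg, and 0% in either direction otherwise. At an unadjusted p under 0.05, 0 members were higher at 0.06, 4 at 0.641 (Psmb7, Psmd3, Psmd5 and Psmd8), 0 at 6.41 and 4 at 64.1 mg/kg (Psmb7, Psmc3ip, Psmd5 and Psmd8), and none was lower. Of all probe sets, 1.84%, 2.46%, 1.99% and 3.1% were higher at this limit in order of dose, and 2.32%, 2.3%, 2.14% and 2.84% lower. Members with a mean above vehicle numbered 33, 36, 40 and 33 in order of dose, against 48.2%, 48.9%, 49.4% and 51.6% of all probe sets. Their median differences were small, at 0.03, 0.03, 0.03 and 0.04 log2 units, against 0.11 at 641 mg/kg. Leaving out single arrays moved these medians over 0.011 to 0.033, 0.019 to 0.048, 0.019 to 0.044 and 0.019 to 0.054 in order of dose, and that at 641 mg/kg over 0.099 to 0.128. The lower-dose medians fell to 0.014, 0.019, 0.019 and 0.023 without vehicle replicate 2. They also fell to 0.011 without replicate 2 of 0.06 mg/kg, to 0.019 without replicate 6 of 6.41 mg/kg, and to 0.019 or 0.024 without replicate 4 or 5 of 64.1 mg/kg. These 5 comparisons share the vehicle arrays.

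The 8 called genes were picked by their difference from vehicle at 641 mg/kg, a choice that favours a largest difference at that dose. In each of them the largest difference over dose lay at 641 mg/kg. Psmd5 stood at 1.10-fold, 1.13-fold, 1.07-fold, 1.12-fold and 1.29-fold of vehicle in order of dose. Psmb3 stood at 1.05-fold, 1.07-fold, 1.01-fold, 1.08-fold and 1.21-fold. Psme1 stood at 1.02-fold, 1.04-fold, 1.03-fold, 1.04-fold and 1.18-fold. Psmb7 differed from these, with 1.11-fold already at 0.641 mg/kg (1.03 to 1.199; adjusted p = 0.9995) and 1.09-fold at 64.1 mg/kg. Across the 46 genes, the 641 mg/kg group had the highest of the 6 group means in 36, and the vehicle group had the lowest in 24. Over all 14217 genes, 641 mg/kg was highest in 23.0% and vehicle lowest in 15.8%.

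**Figure D3:**
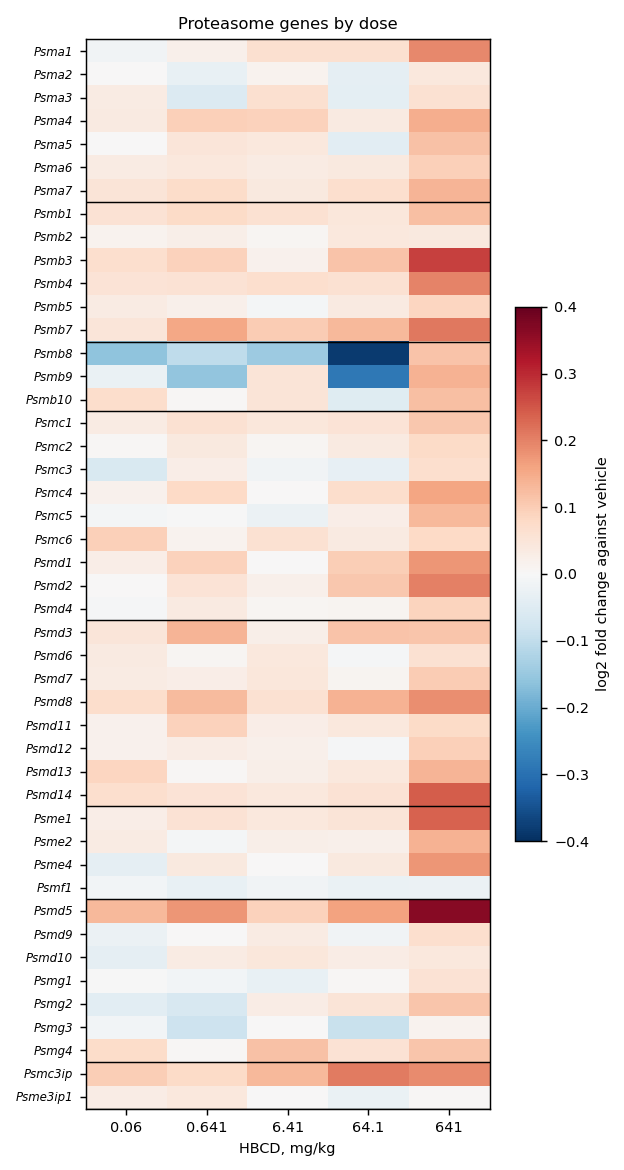
Mean log2 difference from vehicle for each of the 46 genes (rows, grouped by particle part between lines) at each dose of HBCD in mg/kg (columns), in red above and blue below vehicle. The column at 641 mg/kg is red for 45 genes, and the darkest blue cell is Psmb8 at 64.1 mg/kg.

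Psme4, by its brightest probe set, was called beside genes already named when 641 mg/kg was set against lower doses of HBCD. Against the mean of the 3 lowest dose groups, up to 6.41 mg/kg, a comparison without vehicle arrays, 6 of 46 members were higher at 641 mg/kg and 0 lower, where 1.18% of all probe sets were called higher and 0.786% lower. These were Psme1 (1.14-fold, 1.09 to 1.202; adjusted p = 0.000788), Psmb3 (1.16-fold, 1.08 to 1.24; adjusted p = 0.00936), Psma1 (1.12-fold, 1.06 to 1.19; adjusted p = 0.0122), Psmd5 (1.17-fold, 1.09 to 1.27; adjusted p = 0.0162), Psme4 (1.13-fold, 1.06 to 1.199; adjusted p = 0.0221) and Psmd14 (1.14-fold, 1.06 to 1.22; adjusted p = 0.0462). Only Psmb4, Psmd5 and Psme1 had 641 mg/kg arrays above all 18 arrays of the lower doses, where 0.254% of all probe sets did, and Psmb4 missed the threshold here (adjusted p = 0.0523). In all, 44 of 46 members stood above the lower-dose mean, where 48.3% of all probe sets did. Without replicate 1 or replicate 5 of 641 mg/kg, 3 members were called. A straight line over the dose ranks called 6 members higher, with 0.902% of all probe sets called higher and 0.445% lower. They were Psma1, Psmb3, Psmb7, Psmd5, Psmd8 and Psme1, with slopes of 0.03 to 0.05 log2 units per dose step and adjusted p-values from 0.00498 for Psme1 to 0.0443 for Psmd8. This count fell to 3 without vehicle replicate 4 or 5 or replicate 1 or 5 of 641 mg/kg, and to 2 (Psma1 and Psme1) without replicates 2, 3 and 4 of 64.1 mg/kg together. Psma1, Psmb3, Psmd5 and Psme1 were called in all 3 comparisons, which share the 6 arrays at 641 mg/kg, and in the test over all 5 doses at once Psme1 (adjusted p = 0.0126) and Psmd5 (adjusted p = 0.0406) passed, with 0.773% of all probe sets.

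Directly between 641 and 64.1 mg/kg, limma called 0 of 46 members, with 0.19% of all probe sets called higher and 0.0515% lower. At an unadjusted p under 0.05, 10 members were higher and 0 lower, against 4.45% and 4.7% of all probe sets. Psme1 came nearest, at 1.14-fold (1.07 to 1.21; adjusted p = 0.0503), and Psmd5 stood at 1.151-fold (1.05 to 1.27; adjusted p = 0.306). In both genes the 641 mg/kg arrays lay above all 64.1 mg/kg arrays, as they did in 0.412% of all probe sets. In all, 43 of 46 members stood higher at 641 than at 64.1 mg/kg, where 46.7% of all probe sets did. Without replicate 1 or replicate 5 of 64.1 mg/kg, 1 member was called.

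The core and 19S genes were also summarised on each array. The mean of the 30 genes of the core and 19S, set against its vehicle mean, ran from -0.06 to 0.07 log2 units on the 6 vehicle arrays and from 0.05 to 0.21 at 641 mg/kg (median 0.12). The groups overlapped slightly. At the 4 lower doses, in rising order, the highest arrays reached 0.10, 0.13, 0.08 and 0.12, so some arrays of each lower dose lay within the range of the top dose. Core and 19S means were alike at 641 mg/kg, at 0.13 ± 0.05 and 0.12 ± 0.07 (SD, n = 6). The 7 chaperones ran from 0.02 to 0.25 at 641 mg/kg, around a mean of 0.11 ± 0.10.

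**Figure D4:**
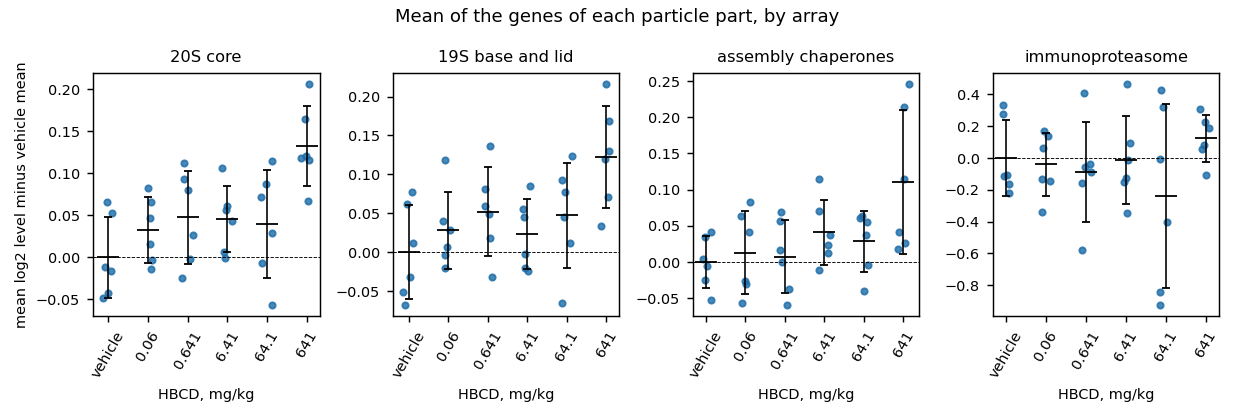
Mean log2 level of the genes of the 20S core, the 19S particle, the assembly chaperones and the immunoproteasome on each array, minus the vehicle mean, by dose; bars are the group mean and SD of 6 arrays, and the vertical scales differ between panels. The core and 19S arrays at 641 mg/kg have medians of 0.119 and 0.124, and the immunoproteasome panel spans from -0.926 to 0.464.

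The core and 19S genes also varied together between arrays of a group. After each group's mean was subtracted, the median correlation between pairs of genes over the 36 arrays was 0.408 within the core, 0.389 within 19S and 0.411 between core and 19S genes. Over all genes it was 0.001, and over genes with a mean of at least 7 it was 0.047. The median was 0.235 among the chaperones and 0.040 between the immunoproteasome and core genes. These are descriptions, since all pairs share the arrays and their normalization. The core and 19S genes had a pooled SD within groups of 0.05 to 0.11 log2 units (median 0.08), against a median of 0.14 over all genes. Over genes with a mean of at least 7 the median was 0.105, which lies within the range of the core and 19S genes.

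The immunoproteasome genes, above all Psmb8, varied widely between arrays of the same group. None of the 3 was called at any dose by limma, and none had an unadjusted p under 0.05 against vehicle. The pooled SD within groups was 0.52 log2 units for Psmb8, higher than in 99.2% of all genes, 0.36 for Psmb9 and 0.18 for Psmb10. The group at 64.1 mg/kg raised these values. The SD of Psmb8 was 0.95 there and 0.32 to 0.43 in the other groups, and that of Psmb9 was 0.61 there and 0.15 to 0.35 elsewhere. Psmb8, which replaces Psmb5 in the immunoproteasome, ran from 8.52 to 9.48 (median 8.67) in vehicle and from 8.65 to 9.56 (median 8.96) at 641 mg/kg. At the 3 lowest doses Psmb8 ran from 8.22 to 9.22, 8.12 to 9.43 and 8.33 to 9.29. The ranges overlapped, and Psmb8 stood at 1.08-fold (0.732 to 1.601; adjusted p = 0.933). Psmb9, which replaces Psmb6, stood at 1.10-fold (0.840 to 1.45; adjusted p = 0.859), and Psmb10, which replaces Psmb7, at 1.09-fold (0.942 to 1.26; adjusted p = 0.735). The intervals of all 3 genes include 1.

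The lowest Psmb8 levels of the study were on 3 arrays at 64.1 mg/kg. Psmb8 there was 9.48, 8.02, 7.37, 7.62, 8.78 and 9.60 on replicates 1 to 6, so replicates 2, 3 and 4 lay below every array of the other groups. Psmb9 was likewise lowest on replicates 3 and 4, at 7.32 and 7.20. At this dose Psmb8 stood at 0.768-fold of vehicle (0.519 to 1.135; adjusted p = 0.941), Psmb9 at 0.8205-fold and Psmb10 at 0.968-fold. The mean of 8 macrophage markers was also low on these arrays, at 8.03, 7.69 and 7.94, against 8.45 to 8.72 in vehicle. Means as low were also seen on arrays with higher Psmb8, at 7.835 on replicate 2 of 6.41 mg/kg (Psmb8 8.33), 7.959 on replicate 4 of 0.641 mg/kg (Psmb8 8.97) and 8.017 on replicate 3 of 0.06 mg/kg (Psmb8 8.43). Replicates 1, 5 and 6 of 64.1 mg/kg had macrophage means of 8.431, 8.544 and 8.440. At this dose 7 of the 8 markers were lower by limma at an unadjusted p under 0.05, against 2.84% of all probe sets. The median marker stood at 0.735-fold of vehicle, 1 marker stood above vehicle, and 0 were called. The drop was not particular to macrophage markers. By limma at the same limit, 5 of 11 antigen presentation and interferon genes, 3 of 3 neutrophil markers and 2 of 10 T and NK lymphocyte markers were lower. The means of these neutrophil and T and NK markers lay below every array median. No hepatocyte, B lymphocyte, cholangiocyte, stellate, endothelial or erythroid marker was lower at this limit. The part of macrophages or of other cells in the Psmb8 levels was not tested. By limma, 0 of 46 members were called at 64.1 mg/kg with all arrays or with replicates 2, 3 and 4 left out, a choice made after their values were seen, and with all arrays 4 had an unadjusted p under 0.05.

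The ratio of an immunoproteasome subunit to the constitutive one it replaces was compared on each array. The log2 ratio of Psmb8 to Psmb5 was -2.03 ± 0.43 in vehicle and -1.997 ± 0.38 at 641 mg/kg (SD, n = 6), a difference of 0.03 (exact two-sided permutation p = 0.913). The ratio of Psmb10 to Psmb7 was -1.53 ± 0.13 and -1.62 ± 0.17 (SD, n = 6), a difference of -0.09 (exact two-sided permutation p = 0.305). None of 10 such tests over 5 doses passed after adjustment, where the smallest adjusted p was 0.771.

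Between arrays of a group, Psmb8 levels followed those of antigen presentation genes. Over the 36 arrays with group means subtracted, Pearson's r with Psmb9 was 0.928 (Spearman's rho 0.910; permutation p = 1e-05 for both, the smallest that the resampling gives; adjusted p = 6e-05 over 12 relations). With Tap1, the peptide transporter of antigen presentation, r was 0.897 (rho 0.885; adjusted permutation p = 6e-05). With B2m, the light chain of MHC class I, r was 0.747 (rho 0.758; adjusted permutation p = 0.000440), and with the interferon-induced GTPase gene Gbp2 r was 0.670 (rho 0.627; adjusted permutation p = 0.000540). Within the particle, r was 0.623 with Psme1 (rho 0.702; adjusted permutation p = 0.000984), 0.563 with Psme2 (rho 0.495; adjusted permutation p = 0.0168) and 0.490 with Psmb10 (rho 0.442; adjusted permutation p = 0.0241). With Psmb5, r was -0.08 (rho -0.02; adjusted permutation p = 0.727). Psmb8 also followed Irf1 (r = 0.520, rho 0.546; adjusted permutation p = 0.00858) and the mean of 8 macrophage markers (r = 0.515, rho 0.488; adjusted permutation p = 0.0132). Relations with markers of T and NK lymphocytes (r = 0.288, rho 0.372; adjusted permutation p = 0.0941) and B lymphocytes (r = -0.05, rho -0.12; adjusted permutation p = 0.727) did not pass on r, while that of T and NK lymphocytes passed on rho (adjusted permutation p = 0.0345). These markers were dim. Their means ran from 3.985 to 4.378 for T and NK lymphocytes and from 4.675 to 5.351 for B lymphocytes. Macrophage marker means ran from 7.688 to 8.95, so the strengths of these relations cannot be compared. With the 2 arrays farthest from the median of Psmb8 left out, r was 0.907 for Psmb9, 0.862 for Tap1, 0.744 for B2m, 0.567 for Gbp2, 0.622 for Psme1, 0.440 for Psme2, 0.417 for Psmb10, 0.502 for Irf1, 0.410 for the macrophage markers and 0.424 for the T and NK lymphocyte markers.

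**Figure D5:**
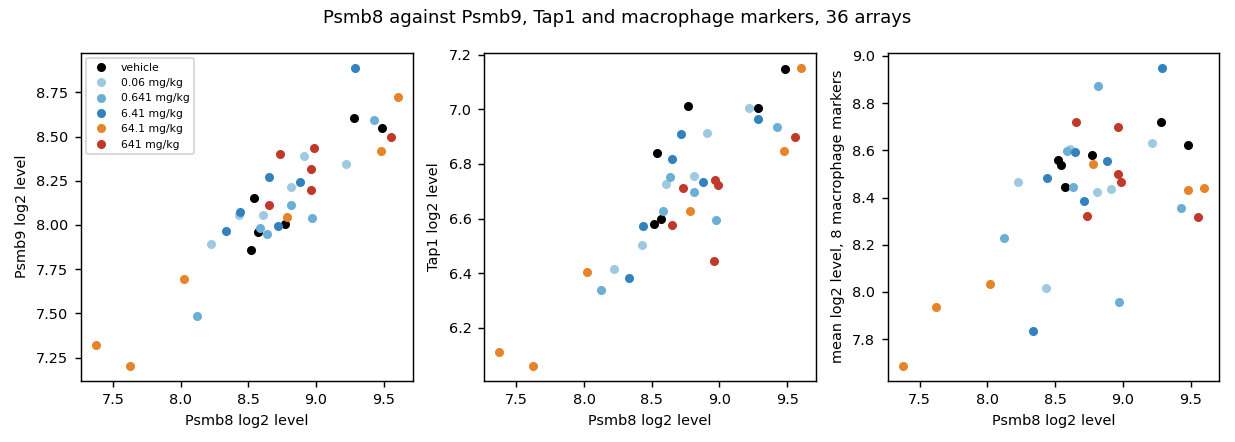
Psmb8 log2 level (horizontal axes) against the log2 levels of Psmb9 and Tap1 and the mean log2 level of 8 macrophage markers (vertical axes) on the 36 arrays, coloured by dose. The 3 arrays with Psmb8 of 7.37, 7.62 and 8.02 are from the 64.1 mg/kg group and also lie low for Psmb9, Tap1 and the macrophage markers.

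Genes known to control proteasome transcription showed no call at 641 mg/kg. Of 9 such genes, 0 were called by limma and 2 had an unadjusted p under 0.05. Nfe2l1, which encodes NRF1, stood at 0.989-fold (0.865 to 1.13; adjusted p = 0.972), and the protease gene Ddi2, whose product activates NRF1, at 1.00-fold (adjusted p = 0.999). NRF1 is controlled through its processing, which transcript levels do not show. Keap1, the adaptor that marks NRF2 for degradation, stood at 1.14-fold (1.05 to 1.25; adjusted p = 0.128). Among NRF2 targets, 9 of 13 measured were called higher, with folds from 1.29 for Txnrd1 (adjusted p = 0.00581) and 1.45 for Gclc (adjusted p = 1.78e-06) to 5.23 for Gsta3 (adjusted p = 9.92e-10). Of all probe sets, 1.13% were called higher. In all, 12 of the 13 stood above vehicle, and Hmox1 stood below it, at 0.945-fold.

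Genes of proteasome subunits and partners that lie outside the naming rule gave no call against vehicle. Of 17 measured of 19 listed, 0 were called by limma at 641 mg/kg, 4 had an unadjusted p under 0.05, and the median difference was 0.07 log2 units. Ecpas, a scaffold of the 26S particle, stood at 1.13-fold (1.05 to 1.22; adjusted p = 0.0663), Usp14, a deubiquitinase bound to 19S, at 1.14-fold (1.05 to 1.23; adjusted p = 0.123) and Pomp, the maturation factor of the core, at 1.06-fold (1.00 to 1.12; adjusted p = 0.391). Against the 3 lower doses, 3 of the 17 were called higher: Ecpas (1.14-fold; adjusted p = 0.00917), the ubiquitin receptor Ubqln2 (1.19-fold; adjusted p = 0.00942) and Usp14 (1.13-fold; adjusted p = 0.0366). In that comparison 16 of the 17 stood above 0, and Sem1, which encodes a small subunit of the 19S lid, was the exception, at 0.949-fold (0.908 to 0.992; unadjusted p = 0.0206 and adjusted p = 0.286 by limma). Against vehicle Sem1 stood at 0.976-fold (0.925 to 1.03; adjusted p = 0.807). Of the ubiquitin and E1 genes only Uba1 and Uba6 were measured by a probe set of 1 symbol, at 1.02-fold and 0.983-fold, and neither was called.

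Antigen presentation and interferon genes were not called at 641 mg/kg, with 0 of 11 by limma and 1 at an unadjusted p under 0.05. Tapbp, the tapasin gene, stood at 1.14-fold (adjusted p = 0.147), Irf1 at 1.10-fold (adjusted p = 0.751), B2m at 0.978-fold (adjusted p = 0.862) and Tap1 at 0.882-fold (adjusted p = 0.701). Markers of liver cell types were mostly uncalled as well. The means of 7 hepatocyte markers, at 13.50 to 13.59 at 641 mg/kg against 13.61 to 13.67 in vehicle, did not overlap; by limma 0 of the 7 were called and 4 were lower at an unadjusted p under 0.05, and the 8 macrophage markers ran from 8.32 to 8.72 against 8.45 to 8.72. Of 10 T and NK lymphocyte markers 1 was called, Cd8a, at 0.633-fold (adjusted p = 0.0176). By limma, 0 of the 3 B lymphocyte, 3 neutrophil, 3 cholangiocyte, 6 stellate and fibroblast, 5 endothelial and 2 erythroid markers were called, and at an unadjusted p under 0.05 1 cholangiocyte marker was higher and 1 neutrophil, 1 stellate and 2 endothelial markers were lower. RNA quality was read from the Gapdh and actin controls, as the 3-prime level minus the 5-prime level, which gave exact permutation p-values from 0.180 to 0.976 over the 5 doses. The part of cell makeup in the proteasome differences was not tested.

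Motifs were counted upstream of the members. In the 250 bases before the start, searched on both strands with overlapping matches of different motifs counted separately, 42 of 46 members had an entry. TGACNNNGC occurred in 6 of the 42 (14.3%; Psma3, Psmb2, Psmb5, Psmd1, Psmd9 and Psme4), against 10.1% of all 33469 windows of this length. None of the 7 called members with an entry held it. CCAAT occurred in 21 of 42 (50%) against 34.0% of all windows, including 3 of the 7 called members, Psma1, Psmb3 and Psmb7. The palindrome bound by nuclear respiratory factor occurred in Psma2 alone, against 0.762% of all windows. A match is a description of the letters in this window and does not show binding.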

How the data were processed

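Liver RNA was measured on 36 Affymetrix arrays in 6 groups of 6. The authors deposited log2 values per probe set, for which the submitters' processing notes name RMA and affy; versions and build are not given in the sources used here. RMA sets the arrays to a common distribution, so changes shared by all genes cannot be seen. Array number limits the precision.

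Groups were fitted with limma 3.58.1 in R 4.3.3 over 31042 probe sets, leaving out 57 controls. The series design names R/maanova, which was not used here; limma fitted the same group means. Members and gene lists were chosen with earlier results of these data known. Named genes were those called, the best gene of each part without a call, all alpha, beta, immunoproteasome and activator genes, and the brightest and dimmest of each part. Of 15 planned ratio tests 10 were run, since Psmb6 lacked a probe set of 1 symbol. Relations with Psmb8 used 1e+05 resamples within groups. The fit was tested on simulated data. Alternatives were normalization, filters, probe set rule, fit and left-out arrays.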

Additional observations from a re-analysis of the deposited data

Results flagged for a closer look

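In 15 of 192 groups of 6 arrays, over 32 named genes, 1 array stood far from the other 5 by Dixon's test, where chance marks about 1 in 20 groups. At 641 mg/kg, Psmb3 was 10.20 on replicate 3 (next 10.33), Psmd14 was 9.57 on replicate 6 (next 9.76), Psmb1 was 11.38 on replicate 1 (next 11.31) and Psmb8 was 9.56 on replicate 6 (next 8.99). In vehicle, replicate 2 was low for Psma1 at 10.03 (next 10.22) and for Psmd11 at 9.86 (next 10.03), and replicate 1 was high for Psmd8 at 9.93 (next 9.82). At 0.06 mg/kg, Psma3 was 8.08 on replicate 2 (next 7.84), Psmd8 was 10.004 on replicate 6 (next 9.90) and Psmf1 was 9.31 on replicate 5 (next 9.41). At 0.641 mg/kg, Psmd5 was 8.93 on replicate 4 (next 9.22). At 6.41 mg/kg, Psmb5 was 10.95 on replicate 3 (next 10.88) and Psmb9 was 8.89 on replicate 4 (next 8.27). At 64.1 mg/kg, Psmd11 was 10.27 on replicate 5 (next 10.09) and Psmg3 was 7.08 on replicate 6 (next 7.28).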

How the results depend on the processing

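Psmb3 and Psmd5 were called at 641 mg/kg under all 9 other settings and all 12 left-out arrays, and Psme1 under all but the mean of its probe sets. The 1.2-fold minimum is not among these 9. It kept Psmb3 and Psmd5 and removed Psme1, which stood at 1.178-fold. The 8 calls became 14 with probe sets of a group mean of at least 6, 3 with only the groups compared, 3 with adjustment over the 5 doses together and 2 with a 1.2-fold minimum, and ran from 3 to 8 without single arrays. The 6 calls against the 3 lower doses became 10 with the filter and 0 at 1.2-fold (3 to 8 without single arrays). The 6 slope calls became 11 with the filter (3 to 8 without single arrays). They became 2 without replicates 2, 3 and 4 of 64.1 mg/kg, a choice made after seeing the data. The 1.2-fold minimum left 0 slope calls, but it was applied per dose step. The largest member slope was 1.037-fold per step, so no member could reach it, and that 0 does not bear on the slope calls. The 0 calls of 641 against 64.1 mg/kg became 1 with the filter and 1 with a variance trend (0 to 1 without single arrays). The lower doses gave 0 calls throughout (0 to 0). Where a cause is not plain from the setting, the cause was not tested.

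Uncalled differences near 0 changed sign. Psmb8 was -0.001551 without replicate 6 of 641 mg/kg (up to 0.239 without single arrays). Psme3ip1 was -0.01139 with quantile normalization repeated, -0.01682 with array weights, -0.0106 without vehicle replicate 5, and -0.04147, -0.01806 and -0.001993 without replicates 1, 2 and 3 of 641 mg/kg (up to 0.03171). Psmg3 was -0.0008344 and -0.008625 under those settings, -0.006438 without vehicle replicate 4, and -0.04275 and -0.009799 without replicates 1 and 2 of 641 mg/kg (up to 0.04752). The ratio of Psmb8 to Psmb5 ran from -0.1103 to 0.1481 without single arrays, with -0.03224, -0.05567 and -0.02404 without vehicle replicates 1, 3 and 5, and that of Psmb10 to Psmb7 from -0.135 to -0.05279.

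With the replicate number as a block, 8 members were called at 641 mg/kg, 6 against the lower doses and 5 in the slope. No clear pairing by number was seen: 8 of 30 pairs with vehicle had a correlation over 0.1, and 6 of 36 arrays correlated best with their own number. The median correlation was 0.025 between arrays of the same number and -0.002 between arrays of other numbers. A weak pairing cannot be told from these values.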
